A study of Homo sapiens with 33 samples.

Results

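Binding of MITF near genes of autophagy was described for 39 genes, out of 19970 protein-coding genes on chromosomes 1 to 22 and X. The 39 were a given list of autophagy genes, and all were found in the RefSeq gene table. MITF was mapped by CUT&Tag: an antibody brings a transposase to a protein on chromatin, and the DNA around it is cut and tagged. The antibody was against the HA tag, and the cells were UACC-257, an established human melanoma line. The labels of all 11 groups give MITF knockdown as the genotype and doxycycline as the treatment, so those features are shared by the controls. The groups are named here as in the sample titles: WT, Empty, and 9 variants of MITF, which are rep217A and rep263A and, beside them, K243A, G244E, Y253A, E260A, Q261A, A264C and N278D. Each group had 3 peak lists, 33 in all. The lists of replicates 2 and 3 were identical in rep217A and again in rep263A, so each such pair was counted as 1 library and these groups have n = 2, which left 31 distinct libraries. Nothing in the labels tells separate cultures from repeat libraries, so p-values measure only the spread between these samples, which may be technical.

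Autophagy wraps cell contents in a double membrane and delivers them to the lysosome. A kinase complex starts the process, a lipid kinase complex marks the membrane, lipid transfer proteins enlarge it, conjugation enzymes attach small ATG8 proteins to it, cargo receptors tie cargo to those proteins, and tethering complexes bring the finished vesicle to the lysosome. MITF is the lineage factor of melanocytes and a relative of TFEB and TFE3, which are known regulators of lysosomal and autophagy genes. These factors bind E-boxes, above all the hexamers CACGTG and CATGTG.

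A gene was called strong in a library when the summit of a peak among the 10000 of highest deposited −log10 q lay within 5000 bp of either end of the gene. Peaks of equal −log10 q were taken in the order of the list. For comparisons between groups, all 19970 genes were ordered within each library by the highest −log10 q of a summit in that window. The resulting gene rank is 1 for the strongest gene, and genes with equal values share their mean rank. Above and below refer to this order, with rank 1 at the top. The log2 gene rank was compared with limma over the 31 libraries, with Benjamini-Hochberg adjustment over all genes and a threshold of 0.05. A rise is the change of log2 rank toward the top, so that a rise of 1 means a rank number lower by a factor of 2. A gene rank says nothing of the amount of MITF on chromatin, since the peaks of each library were ranked among themselves. All variants were compared with the same WT libraries, so their differences from WT are not independent of each other. Groups of 3 against 3 cannot go below an exact p of 0.1, so counts of genes whose groups did not overlap are given without a test.

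The lists held 81488 to 300000 peaks, and 2 G244E lists ended at exactly 300000. Relative depth, read from the commonest background of each library's peaks, was 1.08 to 1.20 in WT. It was 0.835 to 1.49 in A264C, E260A, N278D and Y253A, 0.697 to 0.885 in Q261A, 0.427 to 0.487 in rep263A and 0.276 to 0.348 in rep217A. K243A at 0.132 to 0.244 and G244E at 0.108 to 0.151 were much shallower, and Empty was at most 0.03. The 10000 strongest peaks reached down to a −log10 q of 92.2 to 100 in the WT lists, 9.75 to 13.2 in G244E and 1.63 to 1.87 in Empty. A summit of 1 tag made up 60.7% to 67.6% of the peaks listed for Empty, 52.8% and 58.8% for replicates 1 and 2 of G244E and 54.7% for replicate 1 of K243A, and 0% elsewhere. Of 12 melanocyte genes, 7 were strong in every WT library (TYR, PMEL, SLC45A2, SLC24A5, OCA2, TRPM1 and MLPH), as were 21.3% of all genes. The other 5 (TYRP1, DCT, MLANA, GPR143 and RAB27A) were strong in no WT library. Strong in every WT library were 0 of 8 keratinocyte genes, 1 of 8 lymphoid genes (LCK) and 1 of 8 fibroblast genes (COL1A1). A binding profile does not measure the knockdown named in the labels.

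The promoters that bear on the summit positions described further on come from RefSeq (GRCh38.p14) and run from 200 bases before the start site to 20 bases from it on, 5′ to 3′ on the strand of the gene, with CACGTG in capitals. ATG3 (chr3:112561943-112562162, minus strand) and VPS11 (chr11:119067618-119067837, plus strand) are shown because both hold a pair of E-boxes close to the start, ATG14 (chr14:55411811-55412030, minus strand) because it is the other member with CACGTG, and OPTN (chr10:13099882-13100101, plus strand) because it had the clearest change in rank and has no match here.
ATG3: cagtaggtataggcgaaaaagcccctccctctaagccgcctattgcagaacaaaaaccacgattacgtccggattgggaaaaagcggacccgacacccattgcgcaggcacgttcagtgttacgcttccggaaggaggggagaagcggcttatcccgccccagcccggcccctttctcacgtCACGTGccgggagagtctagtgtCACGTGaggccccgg
VPS11: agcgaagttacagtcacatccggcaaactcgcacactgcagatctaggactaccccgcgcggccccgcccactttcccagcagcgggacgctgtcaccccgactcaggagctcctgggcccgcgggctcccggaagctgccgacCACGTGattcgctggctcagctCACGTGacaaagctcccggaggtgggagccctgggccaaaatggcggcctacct
ATG14: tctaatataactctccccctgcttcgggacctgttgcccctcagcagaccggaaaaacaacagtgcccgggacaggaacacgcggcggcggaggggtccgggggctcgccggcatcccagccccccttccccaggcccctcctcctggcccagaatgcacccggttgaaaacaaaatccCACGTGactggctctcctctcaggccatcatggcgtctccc
OPTN: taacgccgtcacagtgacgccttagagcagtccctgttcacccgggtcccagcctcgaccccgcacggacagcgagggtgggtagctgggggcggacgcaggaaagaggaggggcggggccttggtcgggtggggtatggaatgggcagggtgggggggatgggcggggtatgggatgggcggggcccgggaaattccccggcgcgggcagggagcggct

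Of the 39 genes, 34 had a start site in the promoter table, which covers 250 bases before to 50 after a start. CACGTG, which reads the same on both strands, was found in 3 of the 34 (ATG3, VPS11 and ATG14) and in 8.87% of all 15811 promoters. CATGTG on either strand was found in 4 of the 34 (ATG101, ATG12, BECN1 and PIK3C3) and in 8.43% of all promoters. The longer palindrome TCACGTGA, which contains CACGTG, was found in ATG3 and VPS11 and in 1.42% of all promoters. In ATG3 the CACGTG copies began at −18 and 6 from the start site, in VPS11 at −56 and −34, and in ATG14 at −21. A match describes the letters only and does not show that a factor was bound there.

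In WT, 12 of the 39 autophagy genes (30.8%) were strong in every library, against 21.3% of all genes. They were WIPI1, VPS18, MAP1LC3B, UVRAG, ATG9A, GABARAPL1, ATG3, VPS11, ATG2A, ATG9B, TAX1BP1 and ATG12. Single WT libraries held 13 or 14 strong autophagy genes, and Empty libraries held 12 to 15, but in Empty only 5 were strong in every library, against 8.1% of all genes. The count in every library was 12 in A264C (21.6% of all genes), 10 in E260A (18.6%), 9 in N278D (16.8%), 10 in Q261A (16.6%) and 9 in Y253A (17%). It was 13 in rep217A (18.4%) and 11 in rep263A (19.2%), where only 2 libraries had to match. The highest counts were 14 in G244E (21%) and 15 in K243A (20.4%), the shallowest variants, in which single libraries held 17 or 18 and 18 to 20 strong autophagy genes. The share of autophagy genes was above that of all genes in each of the 31 libraries, which describes the list and was not tested.

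**Figure D1:**
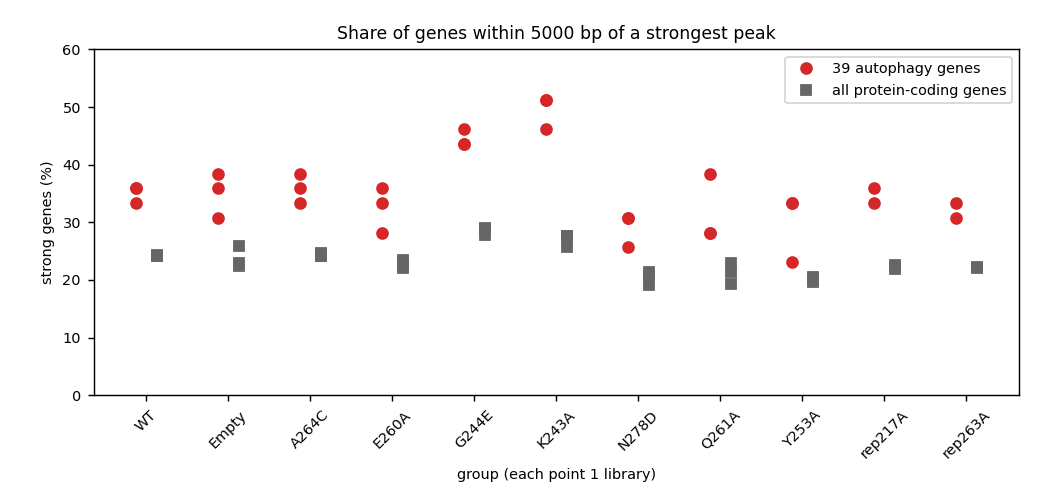
Percent of genes that were strong in each library, by group, for the 39 autophagy genes (red circles) and all 19970 protein-coding genes (grey squares); each point is 1 library. Autophagy genes lie above all genes in every library, and the highest are K243A at 46.2% to 51.3% and G244E at 43.6% to 46.2%.

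WIPI1, MAP1LC3B and VPS18 were strong in all 31 libraries, as were 4.29% of all genes. Leaving Empty aside, 7 of the 39 were strong in all 28 libraries, against 8.94% of all genes. At the other end, 9 were strong in no library (GABARAPL2, ATG2B, ATG4C, ATG4D, ATG5, ATG7, ATG16L1, PIK3C3 and PIK3R4), against 45.1% of all genes. Ordered by the median rank of the best peak over the WT lists, GABARAP at 9115 was the last inside the 10000, and ATG101 at 10190, WIPI2 at 10194 and ATG10 at 10212 were the first outside. These genes near the limit differed between WT libraries: GABARAP was strong in 2 of the 3, and the other named ones in 1 of the 3.

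**Figure D2:**
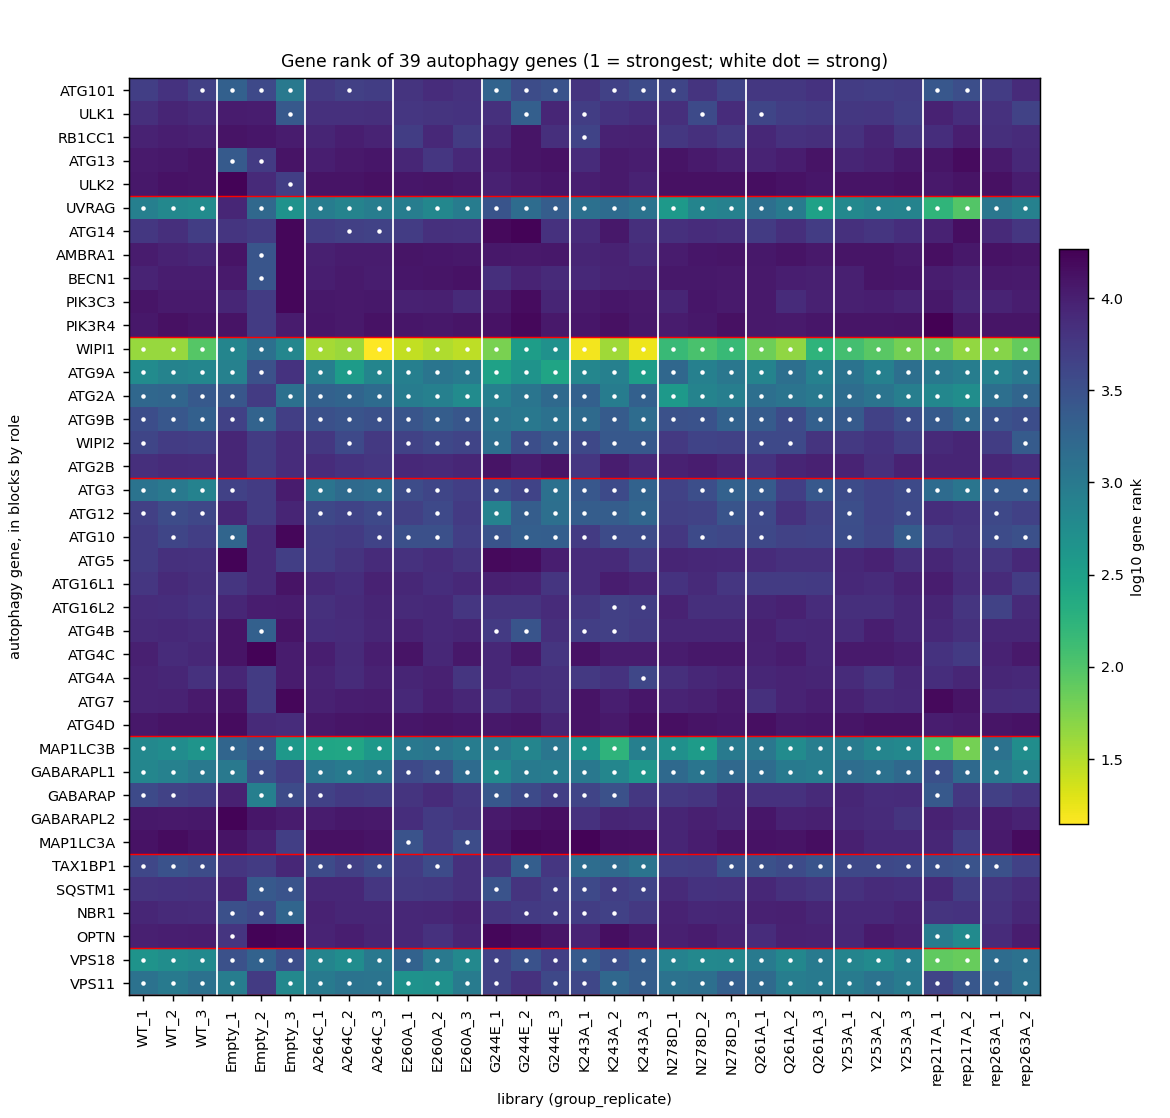
Gene rank (log10 colour scale, yellow for the strongest) of the 39 autophagy genes, in rows grouped by role between red lines, in the 31 distinct libraries, in columns grouped by white lines; a white dot marks a strong gene. WIPI1 is the brightest row, OPTN is bright in rep217A alone, and of the kinase complex at the top only ATG101 has a dot in more than 5 libraries.

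Of the 5 genes of the initiating kinase complex (ULK1, ULK2, ATG13, ATG101 and RB1CC1), 0 were strong in every WT library, where 21.3% of all genes were. ATG101, a subunit that steadies ATG13, had gene ranks of 4936, 6493.5 and 4688 in WT and was strong in 1 of 3 WT libraries and in 13 of all 31. The other 4 were strong in no WT library and in 1 to 5 of the 31. Of the 6 genes of the lipid kinase complexes, UVRAG alone was strong in every WT library, with gene ranks of 842, 640 and 572. BECN1, the scaffold of these complexes, PIK3C3, the catalytic subunit, PIK3R4, ATG14 and AMBRA1 were strong in no WT library.

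Of the 6 genes of lipid supply, 4 were strong in every WT library. WIPI1, which binds the lipid made by that kinase, had gene ranks of 42, 43 and 94 in WT and was the strongest of the 39. ATG9A, the membrane protein that seeds the growing membrane, had gene ranks of 584.5, 740.5 and 676.5 in WT. ATG9B and the lipid transfer protein ATG2A were also strong in every WT library, WIPI2 in 1 and ATG2B in none.

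Among the 11 conjugation enzymes and proteases, only ATG3 and ATG12 were strong in every WT library. ATG3 is the enzyme that passes ATG8 proteins on to the membrane lipid, and ATG12 is itself a small conjugated protein. ATG10 was strong in 1 WT library, and ATG5, ATG7, ATG16L1, ATG16L2, ATG4A, ATG4B, ATG4C and ATG4D were strong in none.

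Of the ATG8 proteins, which coat the membrane, MAP1LC3B had gene ranks of 641.5, 554.5 and 453.5 in WT, and GABARAPL1 had 687, 780 and 998. GABARAP was strong in 2 of 3 WT libraries, and MAP1LC3A and GABARAPL2 in none. Of the cargo receptors, TAX1BP1 was strong in every WT library, and SQSTM1 (p62), NBR1 and OPTN in none. VPS18 and VPS11, the 2 subunits of the HOPS tether among the 39 genes, were strong in every WT library, VPS18 with gene ranks of 459, 553 and 617 and VPS11 with 1222, 985 and 1249.

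In WT, the summits lay at repeatable places close to the start sites. For 31 of the 39 genes the best summits of the 3 WT libraries were within 50 bp of each other. Of the 27 such genes that have a start site in the table, 25 had all WT summits within 500 bp of it and 23 had all of them upstream. The WIPI1 summits were 238 to 242 bp upstream (chr17:68457734 to 68457738), and those of GABARAPL1 were 411 to 417 bp upstream (chr12:10212460 to 10212466). The window of a gene can also hold a neighbour: for 19 of the 39 genes a WT summit lay within 5000 bp of an end of another protein-coding gene as well, such as SLC35A5 for ATG3, ANKZF1 for ATG9A, FBXO31 for MAP1LC3B, AP3S1 for ATG12 and PPP2R5B for ATG2A. For ATG9B, the WT summits were 4200 to 4205 bp upstream, within the window of ABCB8. Which gene such a peak acts on was not tested.

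**Figure D3:**
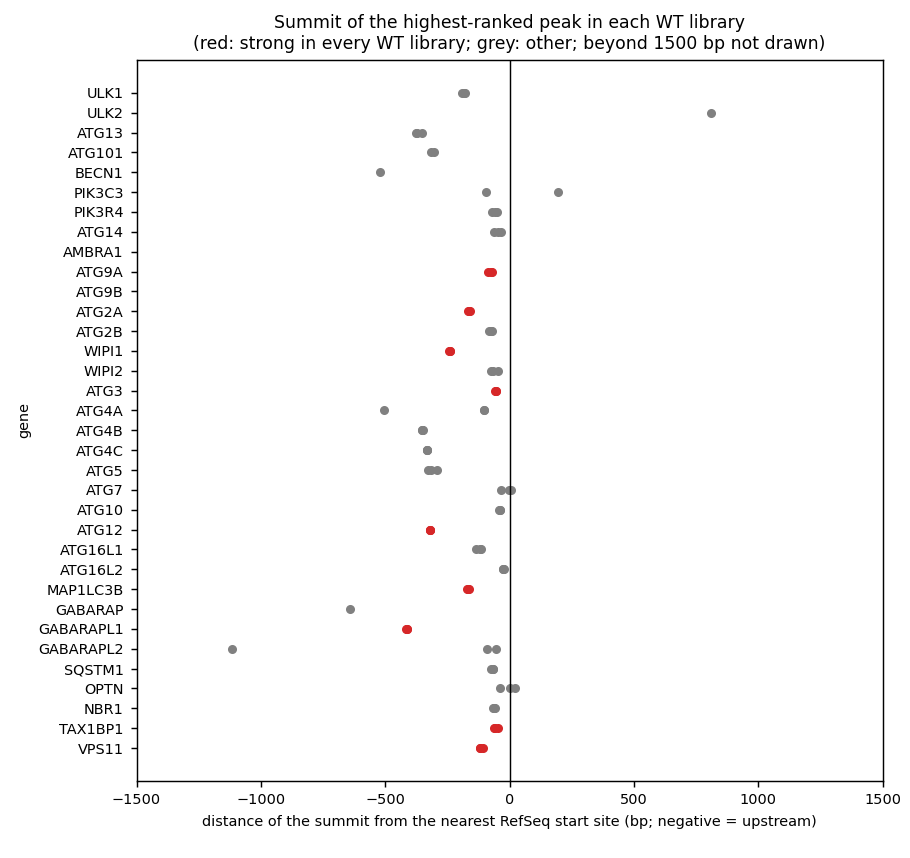
Distance in bp from the nearest RefSeq start site (negative for upstream) of the summit of the highest-ranked peak in each of the 3 WT libraries, for the 34 autophagy genes with a start site; red marks genes strong in every WT library. Most points lie within 500 bp upstream of the line at 0 and overlap for the 3 libraries; points beyond 1500 bp, such as those of ATG9B and AMBRA1, are left out.

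ATG3 had a summit on each of 2 sites in its promoter, which were looked at after their values were seen. In WT the near site was at −53 to −58 from the start, beside the E-box pair, and the far site at −384 to −388. In WT the deposited fold enrichment was 16.1, 16.0 and 16.8 at the near site and 13.6, 12.2 and 11.9 at the far site, which gives near to far ratios of 1.18, 1.31 and 1.41. The near site was the higher in all WT libraries and in all A264C libraries, where the ratio was 1.21, 1.24 and 1.37. In E260A the ratio was 0.850, 0.816 and 0.987, and in G244E it was 0.963, 0.947 and 0.822. The far site was thus the higher in all 6 libraries, and neither group overlapped WT. The G244E libraries were shallow, with relative depths of 0.108 to 0.151. Whether ratios this close to 1, in G244E or E260A, differ from 1 by more than the sampling of tags was not tested. K243A had 1.03, 1.40 and 1.33, of which the first lay below all WT values, and rep263A had 1.33 and 1.33, within the WT range. In N278D it was 0.920, 0.971 and 1.40, in Q261A 1.08, 0.916 and 1.08, in Y253A 1.03, 0.903 and 1.02, and in rep217A 0.815 and 1.68. The Q261A and Y253A values lay below all WT values but on both sides of 1. A ratio taken within a library does not depend on how its peaks were ranked, but it shows an unequal change and not which site changed. In Empty the ratio was 0.600 in replicate 1 and 1.00 in replicate 3, at folds of 4.13 or less, and replicate 2 had no far summit.

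**Figure D4:**
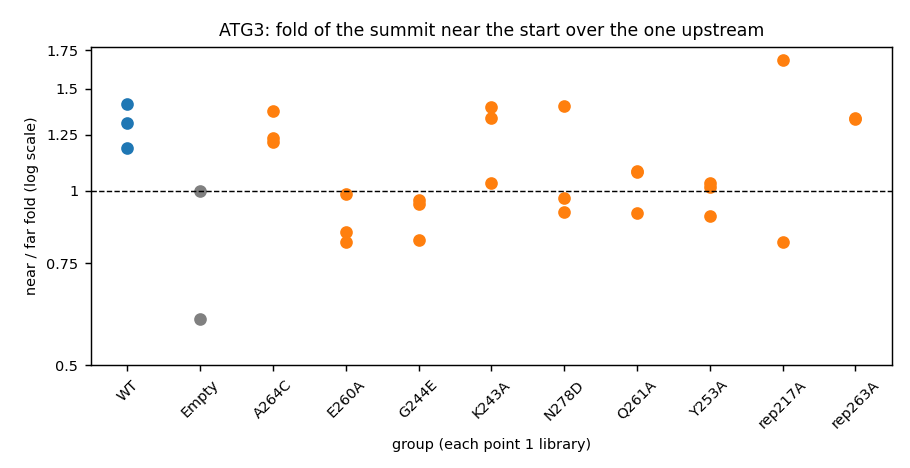
Ratio of the deposited fold enrichment at the ATG3 summit near the start site to that at the summit farther upstream (log scale), by group; each point is 1 library and the dashed line marks equal folds. WT and A264C lie above the line at 1.18 to 1.41, and E260A and G244E lie below it at 0.816 to 0.987.

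The best summit of VPS11 also had different places in different groups. It was 108 to 121 bp upstream of the start in WT and 109 to 120 bp in A264C. It was farther upstream, and so farther from the E-box pair, in E260A (167 to 172 bp), N278D (150 to 158 bp), Q261A (139 to 162 bp), Y253A (155 to 159 bp) and rep263A (150 and 159 bp), none of which overlapped WT. In G244E, K243A and rep217A, 1 library each had its best VPS11 summit at or past the other end of the gene. In Empty it was 101, 152 and 114 bp upstream, on both sides of the WT values. The best summit of MAP1LC3B was 164 to 170 bp upstream in WT, 156 to 175 bp in A264C and 144 and 157 bp in rep217A, against 194 to 237 bp in the other 7 variants. In Empty it was 183 to 224 bp upstream. These positions were chosen for description after they were seen, and no test was run on them.

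Against Empty, 8 autophagy genes were nearer the top in WT (15.8% of all genes were) and 4 were farther from it (26.7% of all genes). The first were VPS18, ATG3, WIPI1, ATG9A, GABARAPL1, ATG4C, ATG12 and TAX1BP1. The others were NBR1, ATG101, ATG13 and MAP1LC3A. The median rise was 0.29 over the 39 genes and −0.12 over all genes. In Empty a rank rests on few tags.

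WIPI1 had gene ranks of 702, 1303.5 and 680 in Empty, below every WT rank. Its rise in WT was 3.95 (SE 0.63, adjusted p = 3.23e-05). Ordering the peaks by their deposited fold turned this to −2.95, and did the same to VPS18 (−0.64) and TAX1BP1 (−0.11). ATG3 had gene ranks of 1209.5, 1024.5 and 772.5 in WT and 4619, 5310 and 10827 in Empty, a rise of 2.71 (SE 0.40, adjusted p = 1.23e-05), which by fold was 0.90 (adjusted p = 0.128). VPS18 had 3115.5, 1954 and 3293 in Empty, and there the best summit lay 2129 to 2511 bp past the other end of the gene, not at the WT site. Its rise was 2.33 (SE 0.35, adjusted p = 1.2e-05).

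ATG12 and TAX1BP1 were strong in every WT library and in no Empty library, as were 3.54% of all genes. ATG12 had gene ranks of 4688.5, 3432.5 and 3971.5 in WT and 8601, 5310 and 8681.5 in Empty. TAX1BP1 had 3973, 3046 and 3477 in WT and 6122.5, 5310 and 8202.5 in Empty. NBR1, a cargo receptor that binds ubiquitin, was the reverse, strong in every Empty library and in no WT library, as were 1.05% of all genes. It had gene ranks of 8558.5, 7888.5 and 7634.5 in WT and 3184, 3749 and 1778 in Empty, which do not overlap. NBR1 was also strong in 2 of 3 G244E and 2 of 3 K243A libraries. A WT summit of NBR1 lay in the window of BRCA1 as well. In 2 of the 3 Empty libraries the NBR1 summit was at the far end of the gene, 146 and 82 bp from that end, while the WT summits were 57 to 65 bp upstream of the start. With WT thinned to a relative depth of 0.108, 6 of the 12 calls were left (ATG3, VPS18 and WIPI1 nearer the top, NBR1, ATG101 and ATG13 farther from it). Of the lost calls, GABARAPL1 (1.81) and MAP1LC3A (−0.77) were as large as before thinning, and ATG9A (1.23), ATG12 (0.47), ATG4C (0.41) and TAX1BP1 (0.39) were smaller. With only peaks of −log10 q of at least 5 the differences of ATG101 and NBR1 turned in sign. In a window of 2000 bp the difference of MAP1LC3A shrank to −0.12 (adjusted p = 0.566). That of ATG101 shrank to −0.16 and was still called (adjusted p = 0.000247). The best WT summits were spread over 4220 bp for MAP1LC3A and over 7751 bp for ATG101.

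Over all 11 groups, 21 of the 39 genes passed the moderated F test, against 42.5% of all genes. The 8 with the highest F were VPS18, OPTN, NBR1, WIPI1, MAP1LC3A, ATG12, GABARAPL2 and ATG3. Over the 31 libraries, gene ranks ran from 75 through a median of 990 to 4814 for VPS18, and from 14 through 63 to 1303.5 for WIPI1. For NBR1 they ran from 1778 through 8090.5 to 9802.5, and for ATG12 from 762.5 through 3971.5 to 8681.5. The receptor OPTN ran from 598.5 through 9773.5 to 17252, the ATG8 protein MAP1LC3A from 2957 through 12545 to 17244, and the enzyme ATG3 from 772.5 through 2659 to 10827.

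**Figure D5:**
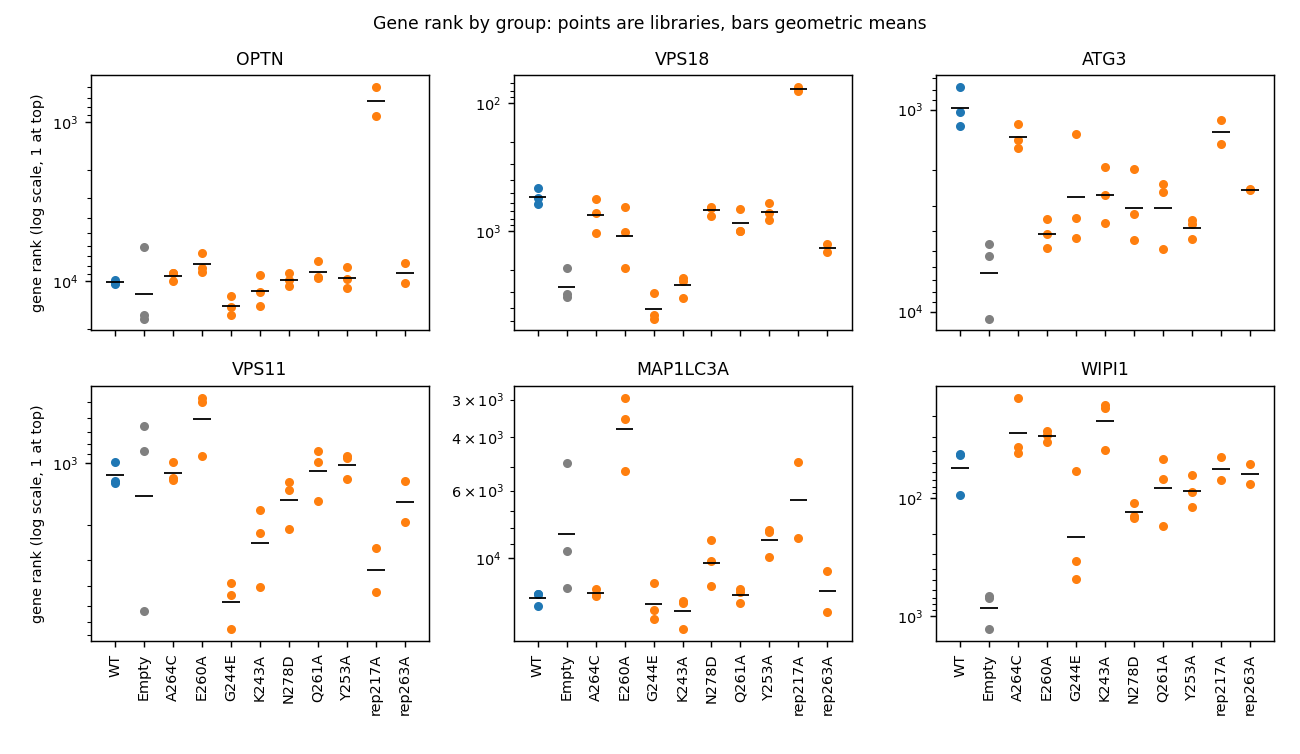
Gene rank (log scale, 1 at the top) of 6 autophagy genes by group, with WT in blue, Empty in grey and variants in orange; points are libraries and bars are geometric means. OPTN stands near the top in rep217A alone, VPS18 is lowest in G244E, and ATG3 is highest in WT.

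OPTN, the cargo receptor optineurin, had the clearest difference of a variant from WT. Its gene ranks were 9918.5, 10247.5 and 10479.5 in WT and 911.5 and 598.5 in rep217A. In the other 8 variants they ran from 6671.5 to 16502, and in Empty they were 6122.5, 17251.5 and 16471.5, where the last 2 had no listed peak in the window. The rep217A libraries therefore stood apart from all other 29. The rise was 3.79 (SE 0.30, adjusted p = 2.67e-09). The deposited fold at the best summit was 12.9, 12.2 and 10.2 in WT and 17.6 and 18.6 in rep217A. The pileup recovered there was 41, 34 and 39 tags in WT and 63 and 86 in rep217A, higher in rep217A although its libraries were shallower. The site was the same: the summits were 3 to 42 bp from the annotated start of the gene in WT and 8 and 40 bp in rep217A, a place that also lies in the window of CCDC3. The OPTN difference remained called under every setting that left rep217A with 2 libraries. Among the 40 differences called for the autophagy genes, no other remained called under every setting tried, including those that left a group 1 library.

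In all, 6 autophagy genes were nearer the top in rep217A (6.33% of all genes) and limma called 0 farther from it (6.04% of all genes), where 5 had an unadjusted p under 0.05. VPS18, whose WT ranks are given above, rose to gene ranks of 80 and 75, by 2.80 (SE 0.39, adjusted p = 1.08e-05), and MAP1LC3B rose to 115.5 and 62.5, by 2.68 (SE 0.63, adjusted p = 0.00429). UVRAG rose to 169 and 96, by 2.41 (SE 0.71, adjusted p = 0.0236), with its summit 367 and 368 bp outside the gene end in rep217A and 75 to 82 bp outside it in WT. The UVRAG summit was also at the farther place in 2 of 3 A264C libraries, 364 and 371 bp out. ATG2A also rose, by 1.71 (SE 0.47, adjusted p = 0.0146), with the summit 1053 and 1043 bp inside the gene in rep217A, while in WT it was 160 to 167 bp outside it. For those genes the rank rests on another peak than in WT. Ordered by the deposited fold, the ATG2A difference was −0.00093. MAP1LC3A had gene ranks of 8635.5 and 4812 in rep217A, against 13185, 14436 and 13180 in WT, and rose by 1.08 (SE 0.29, adjusted p = 0.0121). Its summits there were 2504 and 2521 bp outside the gene end, and with a window of 2000 bp the difference was −0.13. OPTN was the only autophagy gene strong in every rep217A library and no WT library (2.43% of all genes), and ATG12 the only one strong in every WT library and no rep217A library (4.12% of all genes). The ATG12 ranks in rep217A were 7244.5 and 6457.5, and its difference from WT did not pass limma. Leaving out replicate 1 or 2 of every group left rep217A with 1 library, so calls are not counted there. Without replicate 3, whose rep217A list repeats replicate 2, there were 6 calls. Thinning left 4 called. The differences of UVRAG (2.23, adjusted p = 0.176) and VPS18 (2.43, adjusted p = 0.0543) were nearly as large as before but did not pass.

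G244E had the most autophagy genes called against WT, with 3 nearer the top (ATG12, WIPI2 and ATG9B, with 4.8% of all genes) and 7 farther from it (VPS18, VPS11, ATG5, ATG3, ATG2B, WIPI1 and ATG14, with 5.94% of all genes). VPS18 had gene ranks of 4509.5, 3055.5 and 4814 in G244E, below every WT rank, and its rank fell by 2.91 (SE 0.35, adjusted p = 3.49e-06). Ordered by the deposited fold, that difference was −0.066 (adjusted p = 0.975). VPS11, its partner in the tether, had 4452, 6548 and 3853.5 and fell by 2.07 (SE 0.51, adjusted p = 0.00855). ATG12 had 762.5, 2239.5 and 1358 and rose by 1.59 (SE 0.31, adjusted p = 0.000943). WIPI1 had 59, 342 and 491, of which the first lay within the WT range; its difference of −1.96 (adjusted p = 0.0467) turned to 1.88 by fold (adjusted p = 0.00568). Thinned to the depth of the shallowest G244E library, VPS18 alone was called (−3.30, adjusted p = 0.00977). Other differences were larger than before thinning but did not pass: VPS11 at −2.63 (adjusted p = 0.0724), ATG12 at 1.76 (adjusted p = 0.0775), WIPI2 at 1.32 (adjusted p = 0.301) and ATG14 at −1.32 (adjusted p = 0.12). ATG2B stayed at −0.67, and those of WIPI1 (−1.51), ATG3 (−1.03), ATG5 (−0.75) and ATG9B (0.32) were smaller. With a window of 2000 bp, which leaves out its WT summits, ATG9B stood at 0.17 (adjusted p = 0.835). Leaving out the libraries rich in summits of 1 tag (replicates 1 and 2 of G244E and replicate 1 of K243A) left G244E with 1 library. Calls are not counted there. Leaving out replicate 1, 2 or 3 of every group left 1 to 6 of the 10 calls.

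In K243A, TAX1BP1 was nearer the top (0.871% of all genes were) and VPS18 was farther from it (1.98% of all genes). TAX1BP1 had gene ranks of 1402, 1561 and 1180, above every WT rank, and rose by 1.34 (SE 0.33, adjusted p = 0.0222). VPS18 had 2431, 3335 and 2310, below every WT rank, with a mean rank number 4.93 times that of WT (SE 0.35 on the log2 scale, adjusted p = 0.000288). SQSTM1, the receptor p62, was strong in every K243A library and in no WT library, as were 1.33% of all genes. Its gene ranks were 3774, 4871.5 and 4318.5 in K243A and 6214.5, 6404.5 and 6639.5 in WT, but the difference in rank did not pass limma. SQSTM1 was also strong in 2 of 3 Empty libraries (median gene rank 2915) and in 2 of 3 G244E libraries (median 4824). Its WT summits lay in the window of MGAT4B as well. After thinning both differences were larger, 1.89 for TAX1BP1 (adjusted p = 0.184) and −2.85 for VPS18 (adjusted p = 0.0899), but neither passed the test. By fold, TAX1BP1 stood at 2.65 (adjusted p = 5.04e-05) and VPS18 at 0.090 (adjusted p = 0.917). Without 1 replicate of every group, 0 or 1 of the 2 calls held.

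ATG3 was farther from the top than in WT in 5 variants, the most of any autophagy gene. In E260A its gene ranks were 3483.5, 4134.5 and 4854.5, a fall of 2.06 (SE 0.40, adjusted p = 0.00158). In Y253A they were 3538.5, 4358.5 and 3693.5, a fall of 1.97 (SE 0.40, adjusted p = 0.0029). Neither group overlapped WT. In N278D the ranks were 4439.5, 3275.5 and 1972.5, a fall of 1.64 (SE 0.40, adjusted p = 0.0133). In Q261A they were 2325.5, 4877.5 and 2563.5, a fall of 1.64 (SE 0.40, adjusted p = 0.0297). In G244E they were 3421.5, 4343 and 1315.5, a fall of 1.45 (SE 0.40, adjusted p = 0.0188). All of these lie below every WT rank. The ATG3 rank rests on the near summit in all WT libraries. In all E260A and G244E libraries it rests on the far summit instead. So it does in replicates 1 and 2 of N278D and replicate 2 of Q261A and of Y253A. In A264C the ATG3 ranks were 1173.5, 1557.5 and 1417.5 and overlapped WT, and those of K243A (2659, 3646.5 and 1934.5), rep263A (2484.5 and 2501) and rep217A (1479.5 and 1125.5) did not pass the test. After thinning, the ATG3 difference passed in E260A (−2.34, adjusted p = 0.0216). It did not pass in Y253A (−1.66, adjusted p = 0.17), Q261A (−1.38, adjusted p = 0.562), G244E (−1.03, adjusted p = 0.442) or N278D (−0.82, adjusted p = 0.727), of which the first 2 were nearly as large as before thinning. Whether E260A differs from those variants was not tested. Ordered by the deposited fold, 0 of the 5 calls were left: the differences were −0.95 in E260A (adjusted p = 0.435), −1.07 in Y253A (adjusted p = 0.393), −0.82 in N278D (adjusted p = 0.602), −0.81 in Q261A (adjusted p = 0.897) and 0.28 in G244E (adjusted p = 0.783).

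E260A had 3 autophagy genes nearer the top (3.63% of all genes) and 2 farther from it (2.77% of all genes). MAP1LC3A, an ATG8 protein, had gene ranks of 13185, 14436 and 13180 in WT and 2957, 5175 and 3466 in E260A, a rise of 1.85 (SE 0.26, adjusted p = 3.03e-05). The E260A summits were 2511 to 2517 bp outside the gene end and in the window of PIGU, and with a window of 2000 bp the difference was −0.10. GABARAPL2, another ATG8 protein, had 11743.5, 11440.5 and 11590 in WT and 7315, 5509 and 6222 in E260A, a rise of 0.88 (SE 0.17, adjusted p = 0.00156). Its E260A summits were 1192 to 1214 bp upstream of the start, and its WT summits were spread from 54 to 1116 bp upstream. It was nearer the top in Y253A too, at 8037, 7725 and 6196, a rise of 0.67 (SE 0.17, adjusted p = 0.0192). Over the 31 libraries, GABARAPL2 ran from 5509 through a median of 9742 to 17367 and was strong in none. ATG2A rose by 1.38 in E260A (SE 0.42, adjusted p = 0.0477), and GABARAPL1 fell by 1.69, to gene ranks of 3828, 3134 and 1487 (SE 0.46, adjusted p = 0.0235). Thinning left MAP1LC3A and ATG3 among the 5 calls of E260A. The differences of ATG2A (2.51, adjusted p = 0.0532) and GABARAPL2 (1.39, adjusted p = 0.126) were larger than before and that of GABARAPL1 (−1.38, adjusted p = 0.615) was smaller, and none of those passed. By fold, ATG2A turned to −0.20. Without 1 replicate of every group, 1 to 4 of the 5 calls were left.

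N278D had 1 autophagy gene nearer the top, ATG2A (2.76% of all genes), at gene ranks of 385.5, 738.5 and 851.5 against 1675.5, 1787.5 and 2511.5 in WT, a rise of 1.65 (SE 0.42, adjusted p = 0.0175). It had 1 farther from the top, ATG3 (2.29% of all genes). Q261A had 1 farther from the top, ATG3 (0.756% of all genes), and limma called 0 nearer it (1.09% of all genes), with 0 at an unadjusted p under 0.05. Y253A had 1 nearer the top, GABARAPL2 (2.6% of all genes), and 1 farther from it, ATG3 (1.84% of all genes). After thinning the difference of ATG2A in N278D was 2.37 (adjusted p = 0.0907) and that of GABARAPL2 in Y253A 1.30 (adjusted p = 0.205), both larger than before, but neither passed, nor did those of ATG3 given above. By fold they were 0.16 and 0.24. Without 1 replicate of every group, 0 or 1 call per variant held.

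For A264C, limma called 0 autophagy genes in either direction, and 0 had an unadjusted p under 0.05. Of all genes 0% were nearer the top in A264C and 0.00501% were farther from it. For rep263A, limma also called 0, against 0.376% of all genes nearer the top and 0.651% farther from it. There 2 genes, VPS18 and ATG3, had an unadjusted p under 0.05, both farther from the top. VPS18 had gene ranks of 1444 and 1260 in rep263A, below every WT rank.

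Strong calls that split a variant from WT without overlap were few. In A264C 0 autophagy genes were strong in every library and in no WT library (0.175% of all genes), and 0 the reverse (0.115%). The counts were also 0 and 0 in E260A (1.3% and 2.12% of all genes), G244E (2.56% and 1.37%), N278D (0.806% and 2.84%), Q261A (0.371% and 1.41%), Y253A (0.801% and 2.76%) and rep263A (0.716% and 1.96%). In K243A, SQSTM1 was the only autophagy gene strong in every library and in no WT library (1.33%), and 0 were the reverse (0.721%). SQSTM1 was also strong in 2 of 3 Empty and 2 of 3 G244E libraries. Against WT, SQSTM1 in K243A and OPTN and ATG12 in rep217A were thus the only autophagy genes split in this way.

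Of 36 other genes of the pathway, such as the HOPS subunits VPS16, VPS33A, VPS39 and VPS41, the mitophagy receptors BNIP3 and BNIP3L and the kinases TBK1 and MTOR, 13 were strong in every WT library (21.3% of all genes). Those were EPG5, SNAP29, VPS16, VPS33A, RAB7A, VMP1, TMEM41B, ZFYVE1, BNIP3, BNIP3L, TOLLIP, TBK1 and MTOR. Against Empty, 15 were nearer the top in WT (15.8% of all genes) and 5 farther from it (26.7%). In rep217A, 6 were nearer the top (6.33%) and 4 farther from it (6.04%), and in G244E 1 was nearer (4.8%) and 4 were farther (5.94%). In E260A 1 was nearer (3.63%) and 1 farther (2.77%). In the other 6 variants limma called 0 of them nearer the top. The shares of all genes were 0% in A264C, 0.871% in K243A, 2.76% in N278D, 1.09% in Q261A, 2.6% in Y253A and 0.376% in rep263A. An unadjusted p under 0.05 was found for 1 each in A264C, K243A, N278D and rep263A and for 0 in Q261A and Y253A. Called farther from it were 2 in K243A (1.98%), 2 in N278D (2.29%), 1 in Q261A (0.756%), 1 in Y253A (1.84%), 1 in rep263A (0.651%) and 0 in A264C (0.00501%). At an unadjusted p under 0.05 the counts farther from it were 6 in K243A, 7 in N278D, 5 in Q261A, 5 in Y253A, 6 in rep263A and 0 in A264C.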

How the data were processed

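The authors deposited 1 peak list per library, on hg38. MACS2 (no version stated), Bowtie2 2.3.4.3 and bcl2fastq 2.20.0.422 are the tools named, per the submitters' processing notes. Each deposited peak carries a fold enrichment (ratio of summit to background), the −log10 of the summit's p-value and of its q-value, and the summit's offset. The q values were used only to order peaks within a list. Pileup and background were recovered from fold and Poisson p, and matched within 0.01 for 100% of summits of −log10 p under 12. Thinning drew pileups binomially to a relative depth of 0.108 (1 draw, seed 1), with Empty left as it was. Only listed summits can be thinned. limma 3.58.1 (R 4.3.3) was fitted with trend and robust variance, without a replicate block. The fit was tested on simulated data. The members, roles, lists and settings were chosen with earlier results of these data known. All 39 genes are named, with values in libraries for the 6 strongest in WT, those strong in every library of one group and none of another (WT compared with Empty or a variant), and the 8 of highest F. Peaks on other sequences (0.0833% to 0.207% of a list) were left out. Other settings tried were 5000 or 20000 strongest peaks, windows of 2000 or 10000 bp, order by fold, thinning, a −log10 q of at least 5, a replicate block, and leaving out replicates.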

Additional observations from a re-analysis of the deposited data

How the results depend on the processing

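Each list of results below gives the value under the other setting, and results not named stayed within 1.5 times their main count. Brackets in this paragraph and the next give the share of all genes under the same setting. Counts of autophagy genes strong in every library, with 20000 strongest peaks, were 21 in WT (35.3%), 8 in Empty (10.7%) and 20 in A264C (35.9%). They were 22 in E260A (33.4%), 22 in G244E (34.2%), 23 in K243A (34.1%) and 16 in N278D (31.5%). In Q261A they were 19 (31.6%), in Y253A 16 (31.3%) and in rep263A 18 (33.8%). With 5000 they were 3 in Empty (5.36%) and 9 in K243A (10.9%), and with a window of 2000 bp 3 in Empty (6.30%). By fold enrichment they were 7 in WT (14.3%), 10 in Empty (12.9%) and 6 in E260A (11.2%). They were 2 in N278D (10.03%), 5 in Q261A (10.1%) and 4 in Y253A (10.2%). Next are counts strong in every library of one group and none of the other (against WT, or WT against Empty). With 20000 peaks they were 3 for E260A (2.90%), G244E (3.17%) and N278D (2.71%) and 0 for K243A (1.80%). They were 1 for Q261A (1.48%), Y253A (2.99%) and rep263A (2.18%), and 4 for rep217A (5.63%). With 5000 they were 1 for Empty (3.72%), E260A (2.67%), Y253A (2.96%) and rep263A (2.25%), 4 for G244E (3.69%) and 2 for K243A (1.80%). By fold they were 6 for Empty (10.035%) and K243A (6.32%), 4 for G244E (8.18%) and 9 for rep217A (7.51%). They were 1 for E260A (2.09%), N278D (2.48%), Y253A (2.29%) and rep263A (2.56%). With a window of 10000 bp they were 1 for E260A (3.99%), N278D (4.15%) and Q261A (2.11%). Thinned, they were 1 for Empty (3.21%), E260A (1.77%), G244E (2.42%) and Q261A (1.05%). The 3 libraries rich in summits of 1 tag were also left out, a setting chosen after seeing the data. Without them the counts were 3 for G244E (9.49%), left with 1 library, and 2 for K243A (3.32%).

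Counts called by limma with a −log10 q of at least 5 were 25 for Empty (68.4%), 20 for G244E (47.0%) and 11 for K243A (35.7%). They were 2 for Q261A (5.30%) and rep263A (3.84%), 5 for Y253A (10.1%) and 15 for rep217A (43.9%). By fold they were 2 for E260A (3.11%), 8 for K243A (8.81%) and 10 for rep217A (10.6%). For N278D (2.48%), Q261A (0.981%) and Y253A (2.26%) they were 0. Thinned, they were 6 for Empty (15.8%), 2 for E260A (1.16%) and 1 for G244E (1.47%). For K243A (0.110%), N278D (0.651%), Q261A (0.0501%) and Y253A (0.731%) they were 0. With a window of 2000 bp Q261A had 0 (0.891%). Without the 3 libraries G244E kept 1 library, so its limma count is not given. Next, replicate 1, 2 or 3 of every group was left out. The limma counts were then 1 to 4 for E260A (2.32% to 2.85%) and 1 to 6 for G244E (4.31% to 7.62%). They were 0 to 1 for K243A (0.33% to 1.4%), N278D (1.39% to 2.84%) and Y253A (1.247% to 2.07%). For Q261A they were 0 (0.15% to 0.591%). Without replicate 3, rep217A had 6 (10.6%). Without replicate 1 or 2, rep217A kept 1 library, so its limma count is not given. Leaving out a replicate gave non-overlapping counts of 0 to 1 for A264C (0.701% to 1.02%), Q261A (2.76% to 3.57%) and Y253A (4.66% to 5.50%). They were 1 to 3 for E260A (4.74% to 5.32%) and rep263A (3.14% to 6.04%). For G244E (5.88% to 6.46%) and K243A (3.49% to 4.11%) they were 2 to 3. For N278D (4.81% to 5.23%) they were 0 to 3, and for Empty (8.23% to 9.01%) 3 to 5. In every remaining Empty library 7 to 9 autophagy genes were strong (11.2% to 13.2%). Fewer libraries then have to match or enter the fit; the cause of the other differences was not tested.

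Of the 40 called differences, 12 turned in sign under 1 setting. With a window of 2000 bp these were MAP1LC3A in E260A (−0.10) and rep217A (−0.13). By fold they were TAX1BP1 (−0.11), VPS18 (−0.64) and WIPI1 (−2.95) in WT against Empty, ATG2A in E260A (−0.20) and rep217A (−0.00093), ATG3 (0.28) and WIPI1 (1.88) in G244E, and VPS18 in K243A (0.090). With a −log10 q of at least 5 they were ATG101 (0.96) and NBR1 (0.37) in WT against Empty. Replicate numbers did not pair the libraries: over 108 pairs of libraries of 2 groups with the same number the median correlation of deviations was 0.00045, and 7.41% were over 0.1. With the number as a replicate block 37 of the 40 calls were kept and 3 lost (ATG2A in E260A, ATG14 and WIPI1 in G244E). Depth limits the Empty, G244E, K243A and rep217A libraries, in which a site without a strong peak may have been undetectable.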
